A study of Mus musculus with 30 samples.

Results

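The receptors for 3 families of neurotrophic factor were followed across 3 pools of spinal motoneurons of the adult mouse. They were Ret, Gfra1 and Gfra2, the receptors of the GDNF family; Ngfr, Ntrk2 and Ntrk3, receptors of the neurotrophins; and Il6st, Osmr, Lifr and Cntfr, receptors that signal through gp130. All probe sets whose only annotated symbol was one of these 10 genes were taken. There were 15 such probe sets for 9 of the genes, out of 12422 probe sets that were not controls, and Ngfr, which had none, was dropped. Il6st and Gfra2 had 2 probe sets each, Lifr had 5, and the other 6 genes had 1 each.

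The pools were laser captures of motoneurons from the intermediolateral column (IML), which holds the preganglionic neurons of the autonomic nervous system, and of lateral (LMN) and medial (MMN) motoneurons, the somatic cells that drive skeletal muscle. Every animal was a sham-operated adult, and each of the 5 animals gave all 3 pools from its own spinal cord, with 400 captures per pool. The sources used here give no strain, sex or age in weeks and do not say what the operation was. The RNA of each capture pool was divided into 2 portions that were amplified and hybridised to separate Affymetrix arrays, so that 30 arrays made 15 samples, and values below are log2 of the deposited intensity, averaged over both arrays. The number of animals limits the precision.

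GDNF and its relatives bind a GFRα co-receptor on the cell surface, and the pair then engages the receptor tyrosine kinase Ret. Neurotrophins act through Trk kinases, with TrkB (Ntrk2) the receptor for BDNF and TrkC (Ntrk3) the receptor for NT-3, and through p75 (Ngfr). CNTF, LIF and oncostatin M all recruit gp130, the product of Il6st: CNTF through Cntfr and Lifr, LIF through Lifr, and in the mouse oncostatin M mainly through Osmr, with JAK kinases and STAT factors downstream. Motoneurons are a classic target of several of these ligands, which keep them alive during development and after nerve injury.

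In IML captures the bright probe set of Il6st was higher than in somatic captures, by 1.62-fold, and Osmr was higher by 2.27-fold. Ret was lower, at 0.787 of the somatic level. The same 3 genes passed the test against LMN alone. The second probe set of Il6st did not show the difference (0.06 ± 0.06, log2, SE). With each animal left out in turn, the calls against somatic samples held in 1 of 5 fits for Ret, 1 for Osmr and 3 for Il6st. No call held without a block for the animal or with a marker covariate. None of the 15 probe sets passed between IML and MMN or between LMN and MMN. The bright probe set of Lifr was lower in IML in 4 of 5 animals without passing. The receptors Gfra1, Gfra2, Cntfr, Ntrk2 and Ntrk3 had differences between IML and somatic samples close to 0, with narrow intervals. Of these, Gfra1 and Ntrk2 were dim, and whether dim probe sets follow their transcripts was not tested.

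Il6st and Osmr, each with a probe set called higher in IML, share a ligand in oncostatin M, and the stretch around each gene's start is shown for that reason. Each is 300 bases of the RefSeq sequence in assembly GRCm38.p6, from 250 bases before the annotated start to 50 after it, read 5′ to 3′ on the strand of the gene. The Il6st window is chr13:112463820-112464119 on the plus strand, and the Osmr window is chr15:6874264-6874563 on the minus strand. Capitals mark matches, on either strand, to the GC box GGGCGG or the CCAAT box CCAAT; the STAT motif TTCNNNGAA and the TATA box TATAAA were searched too.
Il6st: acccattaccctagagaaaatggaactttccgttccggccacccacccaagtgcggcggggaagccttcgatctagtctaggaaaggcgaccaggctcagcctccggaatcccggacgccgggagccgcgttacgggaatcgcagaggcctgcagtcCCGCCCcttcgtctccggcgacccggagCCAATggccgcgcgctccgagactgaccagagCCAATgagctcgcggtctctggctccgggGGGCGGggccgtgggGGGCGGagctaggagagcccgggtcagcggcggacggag
Osmr: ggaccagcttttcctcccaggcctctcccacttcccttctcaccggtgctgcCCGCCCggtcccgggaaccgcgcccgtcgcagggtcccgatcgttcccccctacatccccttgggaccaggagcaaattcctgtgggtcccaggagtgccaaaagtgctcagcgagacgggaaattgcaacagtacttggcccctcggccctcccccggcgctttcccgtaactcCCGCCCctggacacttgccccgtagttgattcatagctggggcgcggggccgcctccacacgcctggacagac
The Il6st window held 3 GC boxes and 2 CCAAT boxes, and the Osmr window held 2 GC boxes and no CCAAT box. Neither window held the letters of the STAT motif or of the TATA box. Among all 32851 windows of the same length, 35.7% held a GC box, 37.4% a CCAAT box, 8.3% the STAT motif and 13.6% a TATA box. Of the 10 receptor genes, 7 had a window in the table used.

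Before the receptors, the captures were set against markers of their labelled cells. Over the brightest probe sets of all named genes, 6.29% were called in either direction between IML and somatic samples. Of 5 measured visceral motoneuron markers, 3 were called higher in IML than in somatic samples. Among them was Adcyap1, which encodes the neuropeptide PACAP, by 1.81 ± 0.19 (log2 difference, SE, n = 5 animals, adjusted p of 0.000901 by limma). Of 6 measured motoneuron markers, only Nefh, the heavy neurofilament, was called, at -0.83 ± 0.09 in IML (adjusted p = 0.00105, limma). Slc18a3, the vesicular acetylcholine transporter, averaged 7.18 in IML, 8.73 in LMN and 8.30 in MMN (log2 level), and Isl1 averaged 5.74, 5.61 and 5.59 in the same order, under the median of 7.10 over all probe sets. The LMN sample of animal 2 was lowest of its pool for Slc18a3 (7.12) and for Prph, the filament protein peripherin (8.19). Animal 2 was also lowest for Prph in IML (8.80) and in MMN (9.50), whereas for Slc18a3 it was highest in IML (7.57). Markers of other cells were also present: 8 of 12 meningeal and fibroblast markers and 6 of 14 microglia and macrophage markers were higher in IML, with none lower. In captures of this kind, fewer cells of a type and less RNA per cell cannot be told apart.

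Over the whole set of receptors, 3 of 15 probe sets passed an adjusted p of 0.05 between IML and the mean of LMN and MMN, and 5.52% of all probe sets did. Of the 15, 2 were higher and 1 was lower in IML, against 3.44% and 2.09% of all probe sets. Between IML and LMN, 3 of 15 were called, against 8.98% of all, again 2 higher and 1 lower (5.46% and 3.53% of all). Between IML and MMN no receptor was called by limma, and 0.346% of all probe sets were; 3 of 15 receptors had an unadjusted p under 0.05, as did 12.3% of all. Between LMN and MMN no receptor was called by limma, and 0.0564% of all probe sets were; 4 of 15 had an unadjusted p under 0.05, as did 11.6% of all. With no block for the animal none of the 3 was called between IML and somatic samples (adjusted p of 0.164 for Ret, 0.21 for Il6st and 0.0911 for Osmr by limma), and all 3 kept their direction. The median difference between IML and somatic samples was -0.01 over the receptors and -0.01 over all probe sets.

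**Figure D1:**
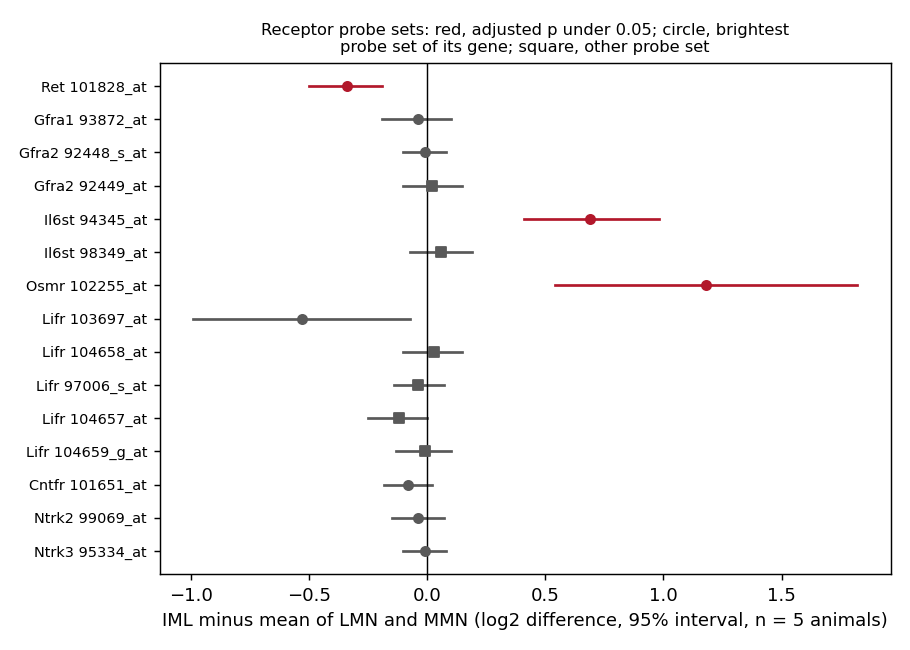
Each row is a receptor probe set; the horizontal axis is the log2 difference of IML minus the mean of LMN and MMN, with its 95% interval (n = 5 animals). Red marks an adjusted p under 0.05, circles the brightest probe set of a gene and squares the other probe sets. Il6st (0.69) and Osmr (1.18) lie to the right of 0, Ret (-0.34) to the left, and the other probe sets, apart from the brightest of Lifr, lie close to 0.

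The receptors were mostly of middling or low brightness. The brightest probe sets of Lifr, Il6st and Gfra2, with mean log2 levels of 9.93, 7.89 and 7.61, were the 3 above the median over all probe sets. Those of Cntfr (7.08), Ntrk3 (6.87) and Ret (6.65) lay just under it, and those of Osmr (5.86), Gfra1 (5.72) and Ntrk2 (5.69) lay lower. Detection calls were not used here, so a low level cannot be set against background, and levels of different probe sets are not compared as amounts of RNA. The receptors differed in what their values followed. The animal accounted for 86.9% of the variance of Ntrk2 over the 15 samples, 87.4% for Ntrk3 and 85.9% for the bright probe set of Gfra2, with 1.79%, 2.83% and 1.11% accounted for by the pool. For Osmr, Ret and the bright probe set of Il6st the pool took the larger share, 54.9%, 50.2% and 46.8%, beside 11.1%, 32.8% and 40.4% for the animal. These are the 3 probe sets called on the same values, so their pool shares restate the calls and add no separate support. The bright probe set of Lifr, which was not called, also had a larger share for the pool (32.6%) than for the animal (15.5%).

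Ret, the kinase that transduces signals of the GDNF family, was lower in IML than in somatic captures. Its probe set, 101828_at, read 6.52, 6.42, 6.07, 6.76 and 6.35 in IML of animals 1 to 5. It read 7.08, 6.77, 6.74, 6.74 and 6.86 in LMN and 6.89, 6.69, 6.47, 6.78 and 6.69 in MMN of the same animals. Animals 1, 2, 3 and 5 had their lowest value in IML, whereas the IML sample of animal 4 sat among the somatic samples, so the groups overlapped. The difference between IML and somatic samples was -0.34 ± 0.07 (SE, n = 5; 95% interval -0.50 to -0.19), with an adjusted p of 0.0206 by limma, and it was negative in 4 of 5 animals. Against LMN the difference was -0.41 ± 0.08 (adjusted p = 0.0128, limma). Against MMN it was -0.28 ± 0.08 (adjusted p = 0.22, limma), with IML lower in 5 of 5 animals, by 0.01 in animal 4. Between LMN and MMN it was 0.13 ± 0.08 (adjusted p = 0.572, limma).

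The call for Ret was lost in most fits on fewer animals and on technical set 1 alone. With each animal left out in turn, the difference from somatic samples ran from -0.433 to -0.297 and was called in 1 of 5 fits, the one without animal 4. Calls over the whole array fell too, from 686 to 386, 650, 169, 397 and 164 without animals 1 to 5 in turn. On technical set 1 alone the Ret difference was -0.26 ± 0.10 (adjusted p = 0.255, limma), and on technical set 2 alone it was -0.43 ± 0.09 (adjusted p = 0.0164). Over the whole array, set 1 alone gave 304 calls and set 2 alone 619. Ret levels ran with the mean of the 6 motoneuron markers, with a Pearson r of 0.75 over the 15 samples and 0.63 with the pool means removed; these samples share animals, so both are descriptions. That marker mean was 8.00 ± 0.21 in IML, 8.50 ± 0.52 in LMN and 8.39 ± 0.34 in MMN (log2, SD, n = 5 each), and their summed intensity ran from 3500 to 6567 in IML, from 5093 to 12084 in LMN and from 4838 to 8774 in MMN. The part of motoneuron content in the Ret difference was not tested.

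**Figure D2:**
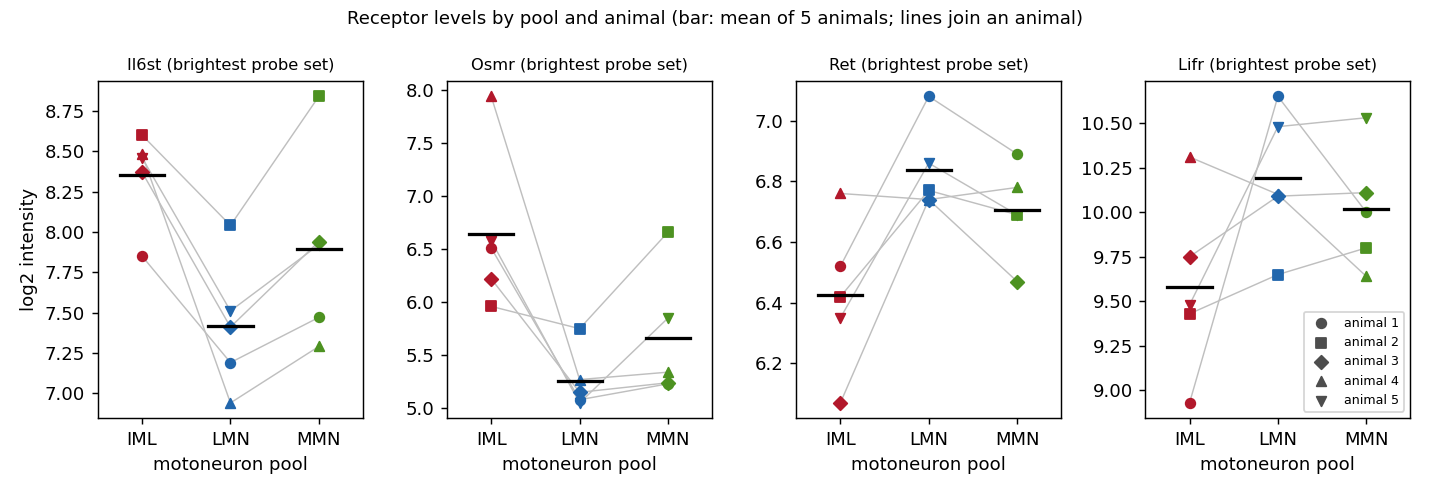
Log2 intensity of the brightest probe set of Il6st, Osmr, Ret and Lifr in the 15 samples; the horizontal axis is the pool, shapes are animals, grey lines join the pools of 1 animal and black bars are means of 5 animals. Vertical axes differ between panels and do not start at 0. The Osmr values in IML (5.96 to 7.94) all lie above those in LMN (5.05 to 5.75), the Ret value of animal 4 in IML (6.76) lies among the somatic values, and animal 2 has the highest MMN values of Il6st (8.84) and Osmr (6.66).

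The GFRα co-receptors, which bind GDNF (Gfra1) and neurturin (Gfra2) for Ret, were not called in any comparison. Gfra1 (93872_at) read 5.70, 6.07, 5.48, 5.65 and 5.53 in IML of animals 1 to 5, 5.91, 6.19, 5.46, 5.77 and 5.95 in LMN, and 5.74, 5.74, 5.26, 5.74 and 5.55 in MMN. The ranges of the 3 pools overlapped throughout. Its difference between IML and somatic samples was -0.04 ± 0.07 (adjusted p = 0.777, limma). Against LMN alone Gfra1 was lower in IML in 4 of 5 animals, by -0.17 ± 0.08 (unadjusted p = 0.046, adjusted p = 0.202, limma), the direction of Ret, and did not pass. Between LMN and MMN Gfra1 was higher in LMN in 5 of 5 animals, by 0.25 ± 0.08, with an unadjusted p of 0.0068 and an adjusted p of 0.231 (limma), which did not pass. The bright probe set of Gfra2 (92448_s_at) averaged 7.60 ± 0.10 in IML, 7.59 ± 0.13 in LMN and 7.62 ± 0.15 in MMN (SD, n = 5 each), so the pool means lay within 0.03 of each other while single animals ran from 7.46 to 7.85. Its other probe set, 92449_at, was dim, with values from 3.55 to 4.05 in all 3 pools.

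The neurotrophin receptor genes on the array, Ntrk2 and Ntrk3, varied more with the animal than with the pool. So did every other uncalled receptor probe set except the bright one of Lifr. The animal accounted for 66.5% of the variance of Gfra1, 64.4% for Cntfr and 74.6% for the second probe set of Il6st. The share over all probe sets of the array is not given here. Ntrk2 (99069_at) read 5.91, 5.47, 5.57, 5.61 and 5.74 in IML of animals 1 to 5, 6.12, 5.57, 5.48, 5.59 and 5.63 in LMN, and 5.98, 5.55, 5.51, 5.78 and 5.77 in MMN. Animal 1 had the highest Ntrk2 value in every pool. This was not particular to Ntrk2. Animal 1 was also highest in every pool for Cntfr and for the second probe set of Il6st. The same held for the mean over 8 measured ligands of these receptors (6.92 in IML, 6.86 in LMN and 6.83 in MMN). Ntrk3 (95334_at) averaged 6.87 ± 0.16 in IML, 6.90 ± 0.11 in LMN and 6.85 ± 0.13 in MMN (SD, n = 5 each). The IML minus somatic differences were -0.04 for Ntrk2 and -0.01 for Ntrk3, and neither gene was called in any of the 4 comparisons. Ntrk2 and Gfra2 ran together across the 15 samples, with an r of 0.85 that was also 0.85 with pool means removed, and the 5 animals are shared by the pools.

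Il6st encodes gp130, the signalling subunit that the receptors of IL-6, LIF, CNTF and oncostatin M share, and its bright probe set was higher in IML. That probe set, 94345_at, read 7.85, 8.60, 8.37, 8.48 and 8.46 in IML of animals 1 to 5. It read 7.19, 8.04, 7.41, 6.94 and 7.51 in LMN, and 7.47, 8.84, 7.94, 7.29 and 7.92 in MMN. IML was above LMN in each animal, LMN was below MMN in each animal, and the ranges overlapped, since the LMN and MMN values of animal 2 were above the IML value of animal 1. The difference between IML and somatic samples was 0.69 ± 0.13 (SE, n = 5; 95% interval 0.41 to 0.98), or 1.62-fold, with an adjusted p of 0.0139 by limma and IML higher in 5 of 5 animals. Against LMN it was 0.93 ± 0.15 (0.60 to 1.26), or 1.91-fold, with an adjusted p of 0.00461 (limma). Against MMN it was 0.46 ± 0.15 (adjusted p = 0.257, limma), higher in 4 of 5 animals, and between LMN and MMN it was -0.47 ± 0.15 (adjusted p = 0.252, limma).

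The call of Il6st against LMN was kept in each of 5 fits that left out an animal, with differences from 0.78 to 1.03. Against both somatic pools it was kept in 3 of 5 such fits and lost without animal 3 (0.696, adjusted p = 0.0739 by limma) and without animal 5 (0.683, adjusted p = 0.0768). The second probe set of Il6st, 98349_at, did not show the difference. It averaged 5.78 ± 0.18 in IML, 5.73 ± 0.19 in LMN and 5.71 ± 0.18 in MMN (SD, n = 5 each), a difference of 0.06 ± 0.06 between IML and somatic samples (adjusted p = 0.658, limma). The bright probe set's difference exceeded that of the second by 0.63 on average, by 0.46, 0.02, 0.47, 1.29 and 0.93 in animals 1 to 5. An exact two-sided permutation test of the signs gave p = 0.0625, the smallest that 5 animals allow, among 3 genes tested this way. Over the 15 samples the probe sets had an r of -0.28, and which of them follows the Il6st transcript more closely was not tested.

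Osmr, the receptor subunit that pairs with gp130 for oncostatin M, had the largest difference of the 15 probe sets. Its probe set, 102255_at, read 6.51, 5.96, 6.22, 7.94 and 6.58 in IML of animals 1 to 5. It read 5.08, 5.75, 5.15, 5.27 and 5.05 in LMN, and 5.23, 6.66, 5.24, 5.34 and 5.85 in MMN. Every IML value was above every LMN value, and the IML sample of animal 4 was highest of all by more than a full log2 unit. In MMN, animal 2 stood above the other animals and above its own IML value. The difference between IML and somatic samples was 1.18 ± 0.29 (SE, n = 5; 95% interval 0.54 to 1.82), or 2.27-fold, with an adjusted p of 0.0407 by limma, and it was positive in 4 of 5 animals, from -0.24 in animal 2 to 2.64 in animal 4. Against LMN it was 1.38 ± 0.34, or 2.61-fold (adjusted p = 0.0276, limma). Against MMN it was 0.98 ± 0.34 (adjusted p = 0.282, limma), and between LMN and MMN it was -0.40 ± 0.34 (adjusted p = 0.69, limma).

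The Osmr call was lost in some fits that left out a single sample. Without the IML sample of animal 4 the difference was 0.817 ± 0.229 and did not pass (adjusted p = 0.073, limma). Without the LMN sample of animal 2 its size was about the same, 1.22 ± 0.313, and the adjusted p was 0.0593. Without the MMN sample of animal 2 it was 1.32 ± 0.261 (adjusted p = 0.019). With each animal left out it ran from 0.817 to 1.54 and was called in 1 of 5 fits, the one without animal 2. Osmr was dim outside IML. A floor of 32 on the intensity left its difference at 1.17, no longer called (adjusted p = 0.106, limma). Over the whole array that floor left 282 calls between IML and somatic samples, against 686 without it. Under the floor the call of Ret was lost too (adjusted p = 0.0509, limma), and that of Il6st was kept (adjusted p = 0.0488).

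Both technical sets gave the directions of these differences. Il6st differed by 0.66 ± 0.14 in set 1 and 0.73 ± 0.15 in set 2, and Osmr by 1.11 ± 0.25 and 1.25 ± 0.32, each with an adjusted p under 0.05 by limma. The arrays of 1 sample differed, at the median, by 0.23 for Il6st, 0.15 for Osmr and 0.14 for Ret, and the median over all probe sets was 0.12 (absolute log2 difference). The largest such gap was 0.64 for Il6st, 0.70 for Osmr and 0.47 for Ret.

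**Figure D3:**
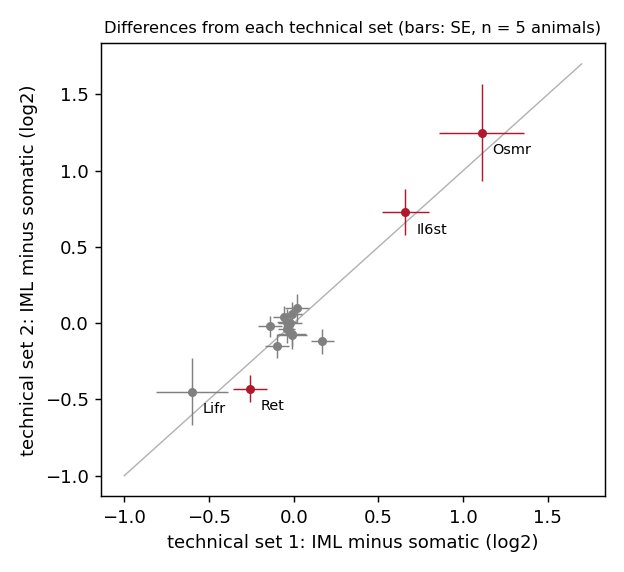
Log2 difference of IML minus the mean of LMN and MMN from technical set 1 (horizontal axis) and technical set 2 (vertical axis) for the 15 receptor probe sets, with SE bars (n = 5 animals) and the line of equality. Red marks the probe sets called on the averaged arrays; Il6st and Osmr lie close to the line, at 0.66 and 0.73 and at 1.11 and 1.25, and Ret lies at -0.26 and -0.43.

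Il6st levels ran with markers of connective tissue cells. Averaged over the 12 meningeal and fibroblast markers, the log2 level was 8.85, 9.84, 9.87, 8.99 and 9.71 in IML of animals 1 to 5, 8.05, 9.11, 8.18, 7.44 and 8.10 in LMN, and 8.78, 10.01, 8.71, 8.01 and 8.67 in MMN. Their summed intensity ran from 12279 to 21626 in IML, from 3331 to 11094 in LMN and from 4854 to 19799 in MMN, so the highest LMN sum lay below the lowest IML sum and MMN overlapped both. The pools stood in the order IML, MMN, LMN for the mean of these markers, for Il6st and for Osmr. Animal 2 was highest in LMN and MMN for all of them, and in IML it was lowest for Osmr (5.96). Over the 15 samples Il6st had an r of 0.94 with this mean (Spearman's rho 0.91) and 0.88 with pool means removed, as a description over samples that share animals. Its r with the mean of 12 astrocyte markers was 0.79, and 0.70 with pool means removed. Osmr had an r of 0.60 with the meningeal mean (rho 0.72) and 0.23 with pool means removed. Its r was 0.45 with the astrocyte mean (rho 0.79) and 0.50 with the endothelial and mural mean (rho 0.67). With the microglia and macrophage mean it was 0.55 (rho 0.66). With pool means removed, these r values were 0.13, 0.30 and -0.11. The IML sample of animal 4, with the highest Osmr level, had the second lowest meningeal mean of the IML samples (8.99).

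With the meningeal mean as a covariate the difference between IML and somatic samples was 0.145 ± 0.217 for Il6st, 0.178 ± 0.547 for Osmr and -0.371 ± 0.159 for Ret, with adjusted p-values of 0.972, 0.99 and 0.931 (limma). In that fit no probe set of the array was called and the median SE was 2.13 times that of the fit without it; the covariate itself differed between the pools. With a glial covariate the differences were 1.0 ± 0.215, 1.8 ± 0.495 and -0.189 ± 0.121, and none was called (adjusted p of 0.137, 0.237 and 0.742). That fit called 1 probe set of the whole array, with a median SE 1.82 times that without it. A lost call under either covariate therefore says little about a single gene. The estimates moved as well as the calls. Without a covariate they were 0.695 for Il6st, 1.18 for Osmr and -0.345 for Ret. Whether the receptor transcripts came from the motoneurons or from cells captured with them was not tested.

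**Figure D4:**
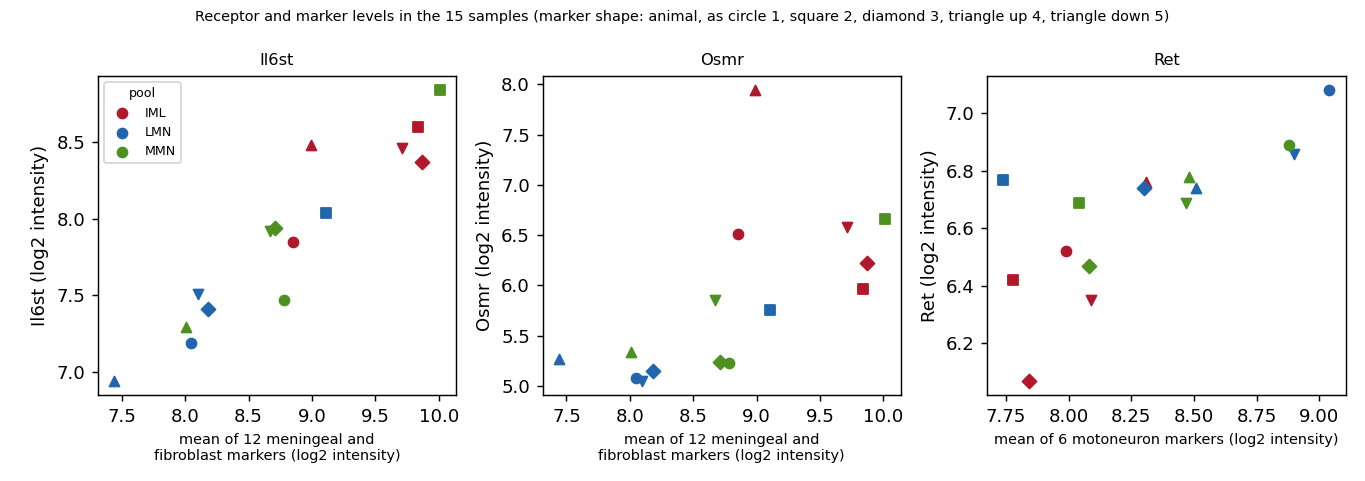
Log2 intensity of Il6st (left) and Osmr (middle) against the mean log2 intensity of 12 meningeal and fibroblast markers, and of Ret (right) against that of 6 motoneuron markers, in the 15 samples; colours are pools and shapes are animals. Axes do not start at 0. Il6st is higher where the marker mean is higher (r = 0.94), the IML sample of animal 4 lies far above the other samples for Osmr (7.94), and Ret is higher where motoneuron markers are higher (r = 0.75).

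Lifr encodes the LIF receptor, shared by LIF, CNTF and related ligands, and it had the brightest receptor probe set. That probe set, 103697_at, read 8.93, 9.43, 9.75, 10.31 and 9.48 in IML of animals 1 to 5. It read 10.65, 9.65, 10.09, 10.10 and 10.48 in LMN, and 10.00, 9.80, 10.11, 9.64 and 10.53 in MMN. IML was lowest in animals 1, 2, 3 and 5 and highest in animal 4, the same animal whose Ret value in IML lay among the somatic ones. The difference between IML and somatic samples was -0.53 ± 0.21 (SE, n = 5; 95% interval -0.99 to -0.07) with an adjusted p of 0.175 by limma, which did not pass. Without the IML sample of animal 4 it was -0.77 ± 0.18 (adjusted p = 0.0419, limma), a setting chosen after that sample had been seen. With the glial covariate it was 0.278 ± 0.251 (adjusted p = 0.829), of the opposite sign and not called. Lifr had an r of 0.69 with the motoneuron marker mean, -0.70 with the microglia and macrophage mean and -0.66 with the astrocyte mean over the 15 samples, and the part of cell content was not tested. The other 4 probe sets of Lifr were dim, with pool means from 4.62 to 5.97, and their differences ran from -0.12 to 0.03. The bright probe set's difference minus their mean was -0.49 on average, with p = 0.25 in the exact two-sided permutation test of signs, which cannot go below 0.0625 with 5 animals.

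Cntfr, the subunit that binds CNTF and is anchored to the cell surface by a lipid, was measured at a level close to the median of the array. Its probe set, 101651_at, read 7.24, 6.96, 6.87, 6.99 and 7.06 in IML of animals 1 to 5, 7.35, 6.94, 7.04, 7.25 and 7.27 in LMN, and 7.19, 6.89, 7.04, 7.02 and 7.04 in MMN. The ranges overlapped in all 3 pools. The difference between IML and somatic samples was -0.08 ± 0.05 (adjusted p = 0.397, limma), that between IML and LMN -0.14 ± 0.05 (adjusted p = 0.129), and that between LMN and MMN 0.13 ± 0.05 (adjusted p = 0.373). Cntfr and Il6st ran opposite to each other over the 15 samples, with an r of -0.73 and of -0.69 with pool means removed. Cntfr had an r of 0.75 with the motoneuron marker mean and of -0.70 with the meningeal mean.

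Across the 11 uncalled probe sets other than the bright one of Lifr, the differences between IML and somatic samples ran from -0.12 to 0.06, and their 95% intervals lay between -0.25 and 0.19. A difference beyond those bounds in either direction was outside the interval for each of these probe sets.

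The genes whose levels ran most like the 3 called receptors were taken over the brightest probe sets of the 8250 other named genes, by Pearson's r across the 15 samples. For Ret they were Mapre3 (0.93), Dpf2 (0.92) and Anxa6 (0.91). For Il6st they were Ctnna1 (0.95), Ctsc (0.94) and Fkbp9 (0.93). For Osmr they were S100a6 (0.93), Ptprr (0.92) and Kit (0.91). Pool differences are part of these r values.

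The ligands of these receptors gave no called difference. Of 16 listed ligands 8 were measured, and none was called by limma between IML and somatic samples, where 6.29% of all named genes were. None had an unadjusted p under 0.05, a level that 23.2% of named genes passed. Those with the smallest p were neurturin (Nrtn, -0.09 ± 0.05, adjusted p = 0.374 by limma), artemin (Artn, -0.05 ± 0.04) and persephin (Pspn, -0.05 ± 0.05), all of the GDNF family. The median difference over the ligands was -0.01, beside -0.01 over all probe sets.

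Among other receptors of the families, 9 of 19 were measured, and 1 was called higher and none lower in IML, beside 6.29% of all named genes called. It was Ncam1, a cell adhesion molecule that can also act as a GDNF receptor with GFRα1, which read 10.43, 10.08, 10.05, 10.31 and 9.86 in IML of animals 1 to 5. It read 8.51, 9.12, 8.85, 9.00 and 8.63 in LMN, and 9.19, 9.63, 9.16, 9.16 and 9.25 in MMN. Every IML value was above every somatic value, and the difference was 1.10 ± 0.11, or 2.14-fold, with an adjusted p of 0.000895 by limma. Gfra3, the artemin co-receptor, differed by 0.33 ± 0.11 (adjusted p = 0.117, limma) and Il12rb1, a cytokine receptor subunit, by -0.10 ± 0.04 (adjusted p = 0.226). The median of the list was -0.04.

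Downstream of gp130, 21 of 25 listed genes of the JAK-STAT pathway were measured, and 1 was called higher and 1 lower in IML, beside 6.29% of all named genes called. Jak1, a kinase bound to gp130, read 9.17, 9.21, 9.14, 9.79 and 8.89 in IML of animals 1 to 5, 10.29, 9.56, 9.66, 9.65 and 9.77 in LMN, and 10.22, 9.42, 9.54, 9.81 and 9.61 in MMN. It was lower in IML in 4 of 5 animals, by -0.51 ± 0.13 (adjusted p = 0.0408, limma), with animal 4 again the exception. Jak2, a related kinase, was higher by 0.28 ± 0.07 (adjusted p = 0.0486, limma) in 5 of 5 animals. The other 19 measured genes were not called, among them the phosphatase gene Ptpn6 (0.18 ± 0.06, adjusted p = 0.109), and the median of the list was 0.01.

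Of 53 listed adaptors and kinases of Trk and Ret signalling 36 were measured, and 1 was called higher and none lower, beside the same 6.29%. Gab1, a docking protein of receptor tyrosine kinases and gp130, was higher in IML by 0.42 ± 0.10 (adjusted p = 0.0354, limma) in 5 of 5 animals. It averaged 8.99 ± 0.23 in IML, 8.27 ± 0.23 in LMN and 8.87 ± 0.18 in MMN (log2 level, SD, n = 5 each), so the IML mean lay close to that of MMN. The Ras activator Sos1 differed by -0.16 ± 0.04 (adjusted p = 0.056) and the Raf kinase gene Araf by 0.21 ± 0.06 (adjusted p = 0.0724), and the median of the list was -0.01.

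Among 33 listed target genes of neurotrophins and gp130, 24 were measured, and 2 were called higher and none lower in IML, again beside 6.29%. A2m, an acute phase protease inhibitor, was higher by 0.73 ± 0.15 (adjusted p = 0.0211, limma) and the neuropeptide gene Gal by 0.30 ± 0.08 (adjusted p = 0.0472), both in 5 of 5 animals. Gfap, the astrocyte filament, differed by 0.74 ± 0.20 (adjusted p = 0.0533), and the median of the list was 0.05. The calls of Jak1, Jak2, Gab1, A2m and Gal were lost in 10, 14, 12, 9 and 15 of 19 other settings, while that of Ncam1 was lost in 2 of 19, both with a marker covariate. Its difference was 1.09 ± 0.239 with the meningeal and 1.14 ± 0.20 with the glial covariate, close to 1.10 without. Over the 5 lists, 98 genes were measured and 6 were called between IML and somatic samples, or 6.12%, close to the 6.29% of all named genes. Between LMN and MMN none was called by limma, and 9 had an unadjusted p under 0.05, or 9.18%, beside 11.8% of all named genes.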

How the data were processed

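Transcripts were measured on 30 Affymetrix mouse arrays, 2 for each of 5 animals and 3 pools. The deposited values are linear intensities: per the labels, R-pack was the tool the authors used for normalization, and logs were then undone. How it works, its version and the image processing are not stated in the sources used here. Of 12488 probe sets, 66 controls were left out and 12422 were tested, and the platform annotation gave 1 symbol for 10833, more than 1 for 396 and none for 1193; the symbols of 10817 were looked up through the gene identifier and 0 changed. Array medians ran from 131.62 to 145.7. Amplifying so little RNA adds spread, which the paired arrays measure in part, and favours sequence near the 3′ end.

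The log2 of each value was used without an offset, the 2 arrays of a sample were averaged, and linear models with pool and animal as fixed terms were fitted over the 15 samples with limma 3.58.1 in R 4.3.3, followed by eBayes. IML was set against the mean of LMN and MMN (called somatic samples) and against each of them, and LMN against MMN. Tests were two-sided, p-values were adjusted by Benjamini-Hochberg over all 12422 probe sets, and the threshold was 0.05. Errors are SE from the model or SD over 5 animals. Each animal gave every pool, per the labels, which is the basis of the block; for all 15 pairs of samples from 1 animal the deviations from the pool means correlated, with a lowest r of 0.288. The steps were tested on simulated data.

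The receptors, the 5 pathway lists and the 8 marker lists were chosen with earlier results of these data known. All receptor probe sets are given, and the brightest stands for its gene. From each pathway list the called genes, or the 3 with the smallest p where fewer than 3 were called, were named, and for each called receptor the 3 genes with the highest r. The alternatives left out the block or made it random, used 1 technical set, rescaled the arrays, removed dim probe sets (mean log2 under 6), applied a floor of 32, used eBayes with trend and robust settings, added marker covariates, kept only the pools compared, and left out each animal or the LMN sample of animal 2. The fits without the MMN sample of animal 2 and without the IML sample of animal 4 were chosen after seeing the data.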

Additional observations from a re-analysis of the deposited data

Results flagged for a closer look

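In groups of 5 animals, the highest or lowest sample was set against Dixon's critical value of 0.71 for its gap to the nearest other sample as a share of the group's range. Over the 15 receptor probe sets and 3 pools, 2 of 45 groups passed it, and chance alone flags about 1 in 20. Both were the LMN sample of animal 1. Ntrk2 read 6.12 there, with the next LMN value at 5.63 and the lowest at 5.48. The dim Lifr probe set 104658_at read 6.25 there, with the next at 5.92 and the lowest at 5.81. Neither probe set was called in any comparison.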

How the results depend on the processing

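No called receptor difference changed its direction under any alternative. With no replicate block, 0 receptor probe sets were called between IML and somatic samples and 0 between IML and LMN. With it there were 3 in each. Adjusted p-values without the block (limma, IML against somatic) were 0.164 for Ret, 0.21 for Il6st and 0.0911 for Osmr. In all, 46 probe sets were called in place of 686. The SE without and with the block was 0.102 and 0.0713 for Ret and 0.224 and 0.13 for Il6st. For Osmr it was 0.289 and 0.292. The meningeal and fibroblast covariate and the glial covariate each left 0 in both comparisons, and a floor of 32 left 1 between IML and somatic samples. With single animals or samples left out, the number called ran from 0 to 3 between IML and somatic samples, from 1 to 4 between IML and LMN and from 0 to 1 between IML and MMN, where Ret was the 1 called, without the IML sample of animal 4 (-0.365 ± 0.062, adjusted p = 0.0488). Between IML and somatic samples the call was lost for Ret without animal 1, 2, 3 or 5, for Il6st without animal 3 or 5, and for Osmr without animal 1, 3, 4 or 5. With only the pools compared in the fit, Ret between IML and LMN had an adjusted p of 0.0648. Between LMN and MMN 0 were called in every setting. Of 1263 single values under alternatives, 109 had the other sign with neither value called. Leaving out dim probe sets removed 9 of the 15 receptor probe sets, those of Osmr, Gfra1 and Ntrk2 among them, which then have no value. Over all probe sets, the number called between IML and somatic samples ran from 0 with the meningeal and fibroblast covariate to 836 with the animal as a random block. The causes of the lost calls were not tested.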
